A study of Mus musculus with 6 samples.

Results

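The miRNAs miR-143 and miR-145a are made from neighbouring hairpins, and both arms of each (mmu-miR-143-3p, mmu-miR-143-5p, mmu-miR-145a-5p and mmu-miR-145a-3p, written below without the prefix for mouse) were followed here in 2 sorted populations of the mouse mammary gland. The 4 were chosen by their names on the array, and all 4 were among the 1247 mouse miRNAs it measures. The cells came from virgin wild-type mice of the strain FVB/N-J and were sorted as lineage-negative and CD24-positive. The population P4 had high CD29 (integrin beta 1), and the labels call it enriched in mammary stem cells. The population P5 had low CD29 and is enriched for luminal cells, which 1 label narrows to luminal progenitors. Each population was measured on 3 single-colour arrays, and the study's design set P4 against P5. The age of the mice is not given, nor whether each array had its own animal or sort. The p-values therefore measure only the spread between these arrays, which may be technical.

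In the mouse gene annotation both hairpin genes, Mir143 and Mir145a, lie inside the gene of the long noncoding RNA Carmn, and no other annotated gene lies inside it. As background, the 2 miRNAs are made from a shared primary transcript that is driven by serum response factor and its cofactor myocardin in smooth muscle. They are known for holding smooth muscle cells in their contractile state, in part by repressing the transcription factors Klf4, Klf5 and Elk1. In the mammary gland the contractile cells are the myoepithelial cells of the basal layer, which are known to express high CD29, and the smooth muscle cells and pericytes of vessels. A hairpin yields a duplex of both arms, of which mostly 1 strand, the guide, is kept. The guides are miR-143-3p and miR-145a-5p.

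The sequences of the cluster itself are not reported here. Shown instead are 4 of the 5 miRNAs whose values over the 6 arrays were closest to those of the cluster (described below), with the pair of miR-221 and miR-222, which are known to promote the proliferation of vascular smooth muscle. The letters are RefSeq mature sequences on GRCm38.p6, 5′ to 3′, and capitals mark the seed, bases 2 to 8, which sets most target choice.
miR-204-5p: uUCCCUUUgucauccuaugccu
miR-211-5p: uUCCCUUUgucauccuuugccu
miR-125b-5p: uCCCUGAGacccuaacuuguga
miR-199a-5p: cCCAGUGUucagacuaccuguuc
miR-221-3p: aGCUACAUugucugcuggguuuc
miR-222-3p: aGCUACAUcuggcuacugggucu
miR-204-5p (chr19:22750610-22750631, plus strand) and miR-211-5p (chr7:64205831-64205852, plus strand) share 1 seed and differ by 1 substitution, A17U, counted from the 5′ end of miR-204-5p. miR-125b-5p is encoded at chr9:41581940-41581961 and chr16:77646279-77646300, both on the plus strand. miR-199a-5p is encoded at chr1:162217844-162217866 on the plus strand and chr9:21496537-21496559 on the minus strand. miR-221-3p (chrX:19146307-19146329) and miR-222-3p (chrX:19146901-19146923) lie side by side on the minus strand and share 1 seed. The fifth miRNA closest to the cluster, miR-1a-3p, is known from skeletal and heart muscle.

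Both guides gave strong signal in P4 and weak but measured signal in P5. The intensity of miR-143-3p was 2660, 4029 and 2233 on P4 replicates 1, 2 and 3 and 199.6, 157 and 88.1 on the P5 replicates. Its lowest P4 array was thus 11.2 times its highest P5 array before any scaling. After each array was divided by the 75th percentile of the miRNAs detected on all arrays, the log2 scaled signal of miR-143-3p was 3.84, 3.40 and 3.03 in P4 and -1.40, -1.54 and -1.84 in P5. The groups lay far apart, and the smallest ratio of any P4 to any P5 array was 21.5. The difference was 5.01 ± 0.24 on the log2 scale (SE, n = 3 arrays each), a 32.3-fold higher level in P4 (limma, adjusted p = 8.05e-06).

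miR-145a-5p, the guide of the second hairpin, had an intensity of 2818, 3522 and 2280 in P4 and of 194, 155 and 111 in P5. Its log2 scaled signal was 3.92, 3.20 and 3.06 in P4 and -1.44, -1.56 and -1.51 in P5, a difference of 4.90 ± 0.24 (29.8-fold, adjusted p = 8.05e-06). The P5 arrays were closer to each other for this miRNA, with an SD of 0.060, than the P4 arrays, with an SD of 0.46.

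The opposite arms were also higher in P4, where they were measured well, but in P5 they were at or near the limit of the array. miR-143-5p had an intensity of 87.8, 134 and 68.2 in P4 and of 2.95, 2.91 and -1.41 in P5, and it was detected on each P4 array but on none of P5. The scaled signal was floored at 0.0223, or -5.49 on the log2 scale, which is set by the signal of undetected miRNAs. All 3 P5 arrays of miR-143-5p were below that floor, at most 28.6% of it. With P4 at -1.08, -1.51 and -2.00, miR-143-5p was at least 15.5-fold higher in P4 (adjusted p = 1.73e-05). This bound is taken from the means of the log2 values, with the P5 arrays at the floor. miR-143-5p was tested only because P4 detected it, and its P5 values have no spread. Its direction was thus largely fixed in advance, and the p-value adds little to the bound.

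miR-145a-3p had an intensity of 114, 210 and 133 in P4 and of 15.6, 11.0 and 9.45 in P5. The scanner software called it detected on all 6 arrays, yet its P5 signal was only 133%, 108% and 135% of the floor. The log2 scaled signal was -0.70, -0.86 and -1.03 in P4 and -5.07, -5.37 and -5.06 in P5, so the groups did not overlap. The difference was 4.30 ± 0.17 (19.7-fold, adjusted p = 3.23e-06).

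**Figure D1:**
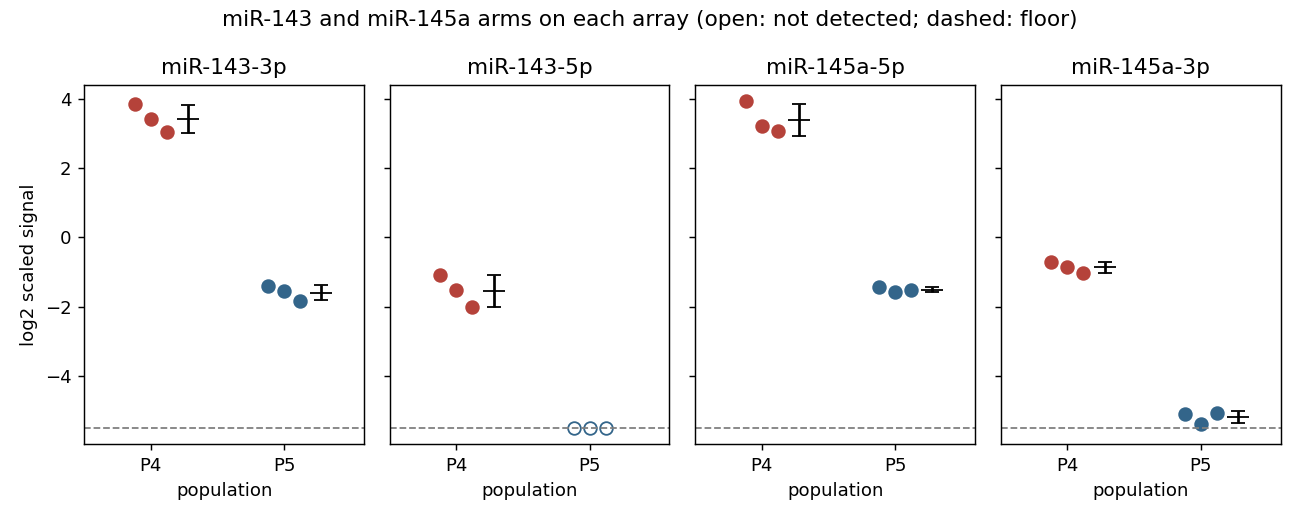
Log2 scaled signal (vertical axis) of the 4 arms on each array of P4 and P5, with replicates 1 to 3 from left to right, the mean and SD of 3 arrays as black bars, the floor of -5.49 as a dashed line and undetected values as open points. All P4 points lie above all P5 points in each panel, and miR-143-5p lies at the floor on all 3 P5 arrays.

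All 4 arms of the cluster passed the threshold of an adjusted p under 0.05 with a higher level in P4. The 370 miRNAs tested were those detected on all arrays of at least 1 population. Of these 27.8% were called in either direction and 13.8% as higher in P4. In all 4 arms every P4 array lay above every P5 array, which held for 20.5% of the tested miRNAs. A log2 difference of at least 3 was reached by all 4 arms and by 2.97% of the tested miRNAs, and of at least 4 by 3 of the arms and by 1.62%. As fitted, miR-143-3p came 2nd by size of the difference, miR-145a-5p 3rd, miR-145a-3p 5th and miR-143-5p 7th. The values of miR-143-5p and of miR-204-5p, miR-211-5p and miR-1a-3p, which came 1st, 4th and 6th, are lower bounds set by the floor, so the true order is not known. The lowest rank of an arm was 14 with the summed signal, the authors' values and normexp. The median difference of all tested miRNAs was 0.0013. In bulk samples such as these, fewer cells that make a miRNA and less of it per cell cannot be told apart.

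**Figure D2:**
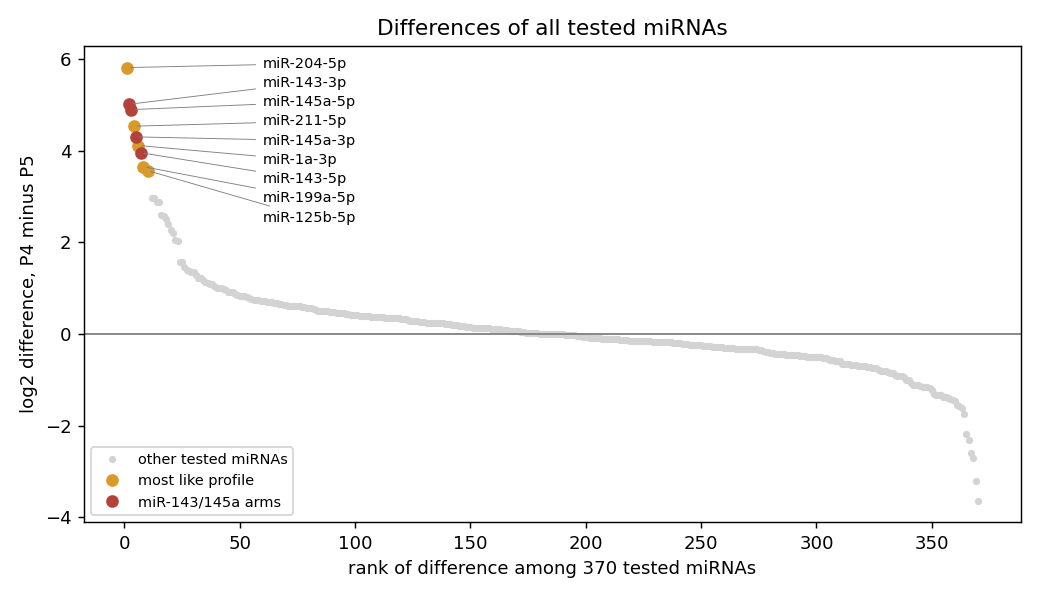
Log2 difference between P4 and P5 (vertical axis) of the 370 tested miRNAs, ordered from the highest to the lowest (horizontal axis, rank), with the 4 arms of the cluster in red and the 5 miRNAs closest to them in profile in orange. The arms lie at ranks 2, 3, 5 and 7, between 3.96, a lower bound, and 5.01.

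The array reads each miRNA with several probes printed many times, so each difference could be checked within a miRNA. The 4 arms were read by 10 probes and by 40 spots each on every array. The 2 probes of miR-143-3p differed by 5.02 ± 0.24 and 5.01 ± 0.25 between P4 and P5, and the 2 probes of miR-145a-5p by 4.87 ± 0.25 and 4.91 ± 0.24. For both guides the probes thus gave nearly the same size. The SEs measure the spread between arrays, which the probes share, so they do not test the probes against each other. Spots flagged as outliers were left out before the spread among the spots of a probe was taken. The coefficient of variation of the spots kept was 2.74% to 8.79% for miR-143-3p and 2.63% to 7.27% for miR-145a-5p over all arrays. The 2.63% came from probe A_54_P2314 on P4 replicate 2, with 16 of 20 spots kept. In P5 the median spot of a miR-143-3p probe was still 4.23 to 7.84 times its local background, and in P4 65.9 to 136.9 times. The probes of miR-143-5p, not detected in P5, lay at 1.34 to 1.52 times there, so the level without signal is above the local background.

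The probes of the opposite arms disagreed in size, and did so where P5 signal was lacking. Probe A_54_P00005083 of miR-143-5p had intensities of 129, 194 and 101.0 in P4 against 5.10, 5.58 and -0.78 in P5, and differed by 4.51 ± 0.24. Probe A_54_P00005082 had 46.6, 73.9 and 35.4 in P4 against 0.80, 0.23 and -2.05 in P5, and differed by 3.05 ± 0.25. Both lay at the floor on all 3 P5 arrays, so both sizes are set by the floor and by the brightness of the probe in P4. Of the 120 spots of miR-143-5p in P5, 0 were well above background by the scanner software's flag, against 120 of 120 in P4.

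For miR-145a-3p the 4 probes differed by 3.35 ± 0.10, 4.17 ± 0.16, 4.27 ± 0.16 and 4.37 ± 0.099. The lowest came from probe A_54_P3313, which was at the floor on all 3 P5 arrays, with intensities of 2.99, 1.21 and 5.81 there against 45.1, 93.1 and 53.8 in P4. The highest came from A_54_P3316, at the floor on 2 P5 arrays. Only 14 of the 120 miR-145a-3p spots in P5 were well above background, 9 on replicate 1, 5 on replicate 2 and 0 on replicate 3. Its 19.7-fold difference thus rests on a P5 signal that is barely measured. All 10 probes passed the threshold with a higher level in P4, with an adjusted p between 2.34e-05 and 0.00142 over the 868 probes of the tested miRNAs, of which 12.2% were called in that direction. Both miR-143-5p probes and A_54_P3313 had no spread in P5, as all their P5 values were the floor, so their p-values add little. The lowest adjusted p was that of A_54_P3316, whose P5 spread (SD 0.083) was narrowed by the floor on 2 arrays.

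**Figure D3:**
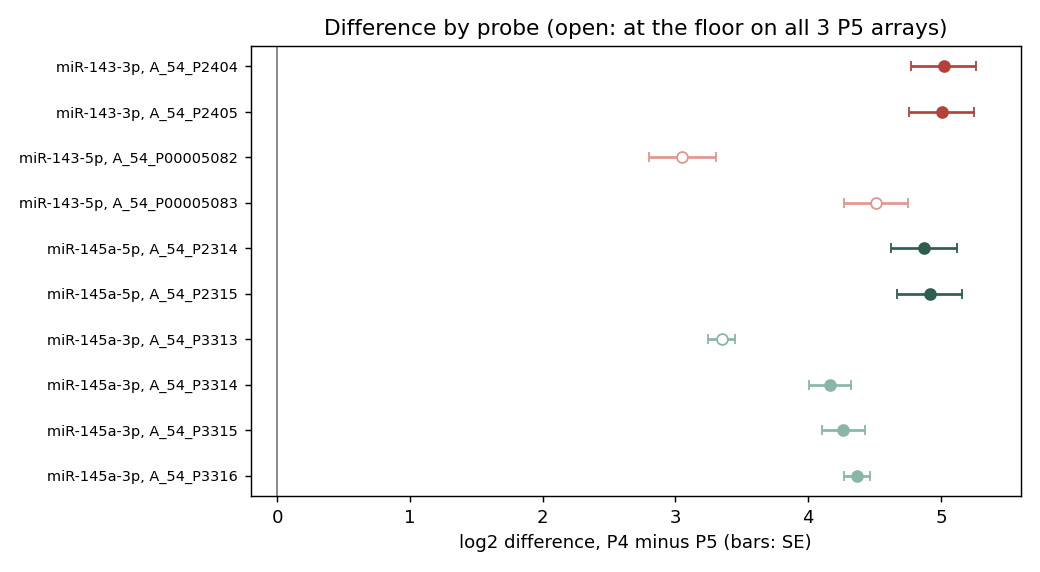
Log2 difference between P4 and P5 (horizontal axis, with the SE as bars) of each of the 10 probes of the cluster, with open points for probes at the floor on all 3 P5 arrays. The probes of each guide coincide near 5, and the 3 open points belong to the opposite arms, between 3.05 and 4.51.

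Whether the 2 hairpins, and the 2 arms of a hairpin, differed by the same amount was tested on ratios within an array. A ratio of 2 miRNAs also reflects how their probes bind, so only its change between populations is read. The log2 ratio of the guides, miR-145a-5p over miR-143-3p, was 0.083, -0.19 and 0.030 in P4 and -0.042, -0.020 and 0.33 in P5. The ratios of the 2 populations overlapped, with means of -0.027 ± 0.15 and 0.090 ± 0.21 (SD, n = 3). The change of -0.12 gave p = 0.6 (2-sided exact permutation test, smallest possible p = 0.1), so no unequal change of the 2 guides was detectable with 3 arrays each.

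The ratio of miR-145a-3p over miR-145a-5p was -4.62, -4.07 and -4.09 on the log2 scale in P4 and -3.63, -3.81 and -3.55 in P5. The groups did not overlap, and the change of -0.59 reached the smallest p that 3 against 3 arrays allow (exact permutation p = 0.1). It turned to 0.13 with Agilent's summed signal, and miR-145a-3p was close to the floor in P5, so the direction is not settled. For miR-143 the ratio of the 5p over the 3p arm was -4.92, -4.91 and -5.03 in P4. In P5 it was at most -4.09, -3.95 and -3.65, because miR-143-5p was at the floor, so the change between populations has no known sign. No p-values were adjusted over these 3 ratios.

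The 3 P4 arrays were not alike in the cluster. After scaling, replicate 1 was highest and replicate 3 lowest in all 4 arms, with deviations from the P4 mean of 0.16 to 0.53 on replicate 1 and of -0.47 to -0.17 on replicate 3. Before scaling replicate 2 was the brightest P4 array in all 4 arms, since the scaling signal was 185.9, 382 and 273 intensity units on P4 replicates 1, 2 and 3. It was 526, 457 and 315 on the P5 arrays, so without scaling the differences are smaller, at 4.36 for miR-143-3p and 4.24 for miR-145a-5p. There the median of all tested miRNAs was -0.64, and the median of the 4 arms was 4.59 above it. The slide had 2 rows of arrays, and P5 replicates 2 and 3 lay apart from the rest in the second. With the row as a block, which sets the P4 arrays against P5 replicate 1, the differences were 4.82 for miR-143-3p, 3.96 for miR-143-5p, 4.84 for miR-145a-5p and 4.21 for miR-145a-3p, all past the threshold.

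Markers of other cell types also differed between the populations and among the P4 arrays. Both endothelial miRNAs, miR-126-3p and miR-126-5p, were higher in P4, and their summed scaled signal was 8.09 to 20.6 in P4 and 0.767 to 2.32 in P5. Of the 5 miRNAs listed for fibroblasts and mesenchyme, 3 were tested, all of the miR-199 family and all higher in P4 (miR-199b-5p not with the summed signal or the authors' values, adjusted p = 0.104 and 0.0960), with a summed signal of 1.06 to 2.99 against 0.126 to 0.161, while no array detected its other members, miR-214-3p and miR-127-3p. Of the 5 leukocyte miRNAs 1, miR-150-5p, was called higher, beside 13.8% of all tested miRNAs, with a summed signal of 0.997 to 3.50 against 0.699 to 0.972. The call of miR-150-5p (2.20, adjusted p = 0.00449) was lost without P5 replicate 3 (0.0522), with the slide row as a block (0.0660) and with no filter on detection (0.147). Both erythroid miRNAs were near the limit, with miR-144-3p detected on no array and a summed signal of 0.0358 to 0.0547 against 0.0161 to 0.0289.

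In their means these lists had another order of P4 arrays than the cluster. The mean deviation from the P4 mean was -0.53, -0.28 and 0.82 on replicates 1, 2 and 3 for the endothelial miRNAs, -0.62, -0.17 and 0.78 for the mesenchymal ones and -0.60, -0.14 and 0.74 for the leukocyte ones. For the cluster it was 0.39, -0.049 and -0.34, so the array highest in the cluster had the lowest mean in each of these lists. Of the leukocyte miRNAs miR-223-3p went against its list, with deviations of 0.24, -0.10 and -0.13. The part of vessel or stromal cells in the level of the cluster was not tested.

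The basal epithelial miRNA miR-205-5p, known from the basal layer of stratified and glandular epithelia, had the same order of P4 arrays as the cluster. Its log2 scaled signal was 3.73, 3.14 and 2.95 in P4 and 0.57, 0.67 and -0.069 in P5, a difference of 2.88 ± 0.28 (adjusted p = 0.000298). Its P4 deviations were 0.46, -0.14 and -0.32. miR-203-3p, the other member of the list of basal and stratified epithelium and known from differentiating epidermis, was lower in P4 (-2.70 ± 0.28, adjusted p = 0.000321). The P4 deviations of miR-203-3p were 0.20, 0.30 and -0.49, highest on replicate 2, so it did not share the order of the cluster. All 5 epithelial miRNAs of the miR-200 family were lower in P4, as were 14.1% of all tested miRNAs, but detected on every array, with a summed signal of 7.33 to 11.8 in P4 and 21.3 to 26.7 in P5. The calls of miR-141-3p and miR-429-3p were lost without P5 replicate 3, and that of miR-429-3p also without P5 replicate 1 or 2. With the slide row as a block miR-200a-3p, miR-141-3p and miR-429-3p were not called, and with no filter on detection none of the 5 was (adjusted p = 0.0533 to 0.246). Their mean deviation in P4 was 0.27, 0.20 and -0.47, the same order as the cluster, although miR-141-3p was highest on replicate 2. miR-31-5p, of the muscle list below and not called, had this order too, at 0.51, -0.19 and -0.31. The order is thus not particular to basal or muscle miRNAs, and its share among all tested miRNAs was not counted. Over 3 arrays of a group these orders are a description only.

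**Figure D4:**
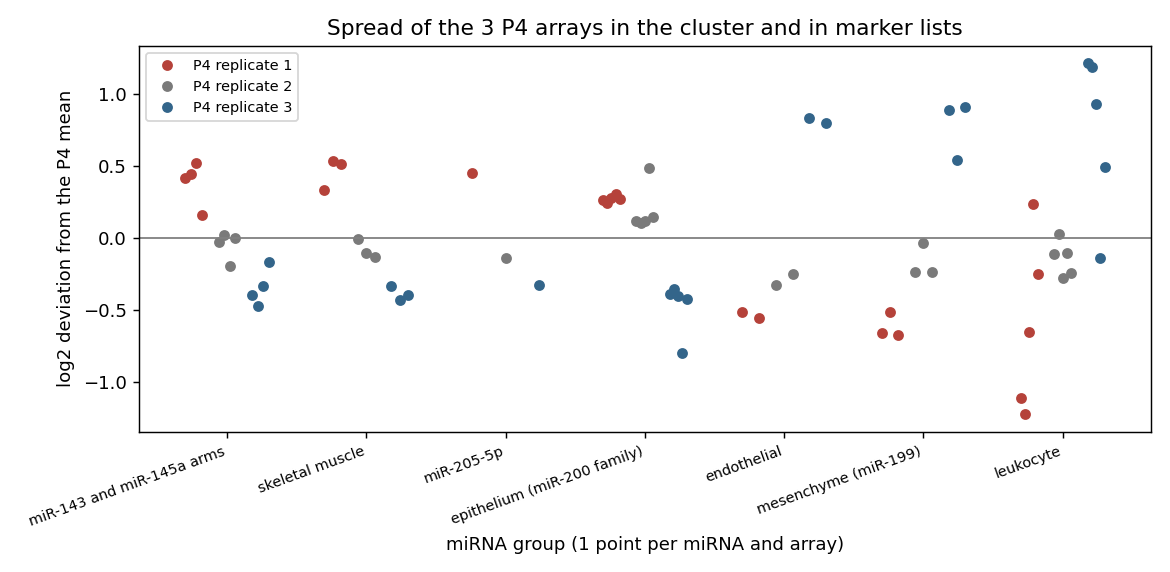
Deviation of each P4 array from the P4 mean on the log2 scale (vertical axis) for the tested miRNAs of the cluster and of the marker lists except miR-203-3p (horizontal axis), with 1 point per miRNA and array coloured by replicate. Replicate 1 lies above 0 and replicate 3 below it for the cluster, the skeletal muscle miRNAs and the miR-200 family, while the endothelial and mesenchymal points are the other way round.

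Other miRNAs with known roles in smooth or other muscle were followed as a list. Of a list of 15, all were on the array and 13 were tested. Of these 9 were higher in P4, 0 lower and 4 not called, and miR-206-3p and miR-490-3p were detected on no array. Over all tested miRNAs 13.8% were higher and 14.1% lower. Of the 9 higher ones 4 were detected on no P5 array, so they were tested only through P4, with a direction largely fixed in advance. The count and the median are thus a description. The median difference of the 13 was 2.03, against 0.0013 over all tested miRNAs. The 4 not called were miR-26a-5p, miR-31-5p, miR-10a-5p and miR-21a-5p. miR-21a-5p (-0.75, adjusted p = 0.111) was called lower in P4 under 5 of 22 alternatives, with values of -1.40 to -0.89.

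The muscle miRNAs of the miR-1 and miR-133 families were detected on each P4 array but on none of P5. miR-1a-3p, which promotes the differentiation of muscle cells, was at -1.04, -1.38 and -1.71 in P4 and at least 17.3-fold higher there. miR-133b-3p was at -2.57, -3.21 and -3.47 and at least 5.30-fold higher, and miR-133a-3p, its close relative, was at least 4.17-fold higher. These bounds hold for the floor and processing used. Over the alternative settings the log2 difference was as low as 1.47 for miR-1a-3p, 0.63 for miR-133b-3p and 0.49 for miR-133a-3p. With P4 mean deviations of 0.46, -0.079 and -0.38 these 3 followed the order of the cluster. Their summed scaled signal was 0.465 to 0.790 in P4 and 0.0218 to 0.0317 in P5. The fourth skeletal muscle miRNA, miR-206-3p, was not detected.

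miR-222-3p and miR-221-3p, which share a seed and whose sequences are given above, were higher in P4 by 2.60 ± 0.26 and 2.27 ± 0.17. In vascular smooth muscle they are known for the opposite role to the cluster, as they promote growth rather than contraction. miR-204-5p, known for a role against calcification in vascular smooth muscle, was at 0.33, 0.57 and 0.084 in P4 and at least 56.3-fold higher than in P5, where it was detected on no array. That bound also holds for the floor and processing used, and the lowest log2 difference over the alternative settings was 2.84.

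The miRNAs closest to the cluster in profile were found by centring the 6 log2 values of each miRNA on their mean and taking the root-mean-square difference from the mean centred profile of the 4 arms. The 5 closest of the other 366 tested miRNAs were miR-1a-3p (0.22), miR-211-5p (0.22), miR-125b-5p (0.51), miR-204-5p (0.67) and miR-199a-5p (0.69). On every P5 array miR-1a-3p, miR-211-5p and miR-204-5p were at the floor, as was miR-143-5p within the cluster. Their distances thus depend on where the floor is set. The arms themselves lay at 0.19 to 0.30 from their own mean. Among the 5, miR-1a-3p was highest on P4 replicate 1 and lowest on replicate 3, like the cluster, and miR-199a-5p, which is also on the mesenchyme list, ran the other way, at -2.23, -1.75 and -1.18. miR-125b-5p, an abundant miRNA known to restrain differentiation in several tissues, was the only one of the 5 detected on all 6 arrays, at 4.04, 3.73 and 3.66 in P4 and 0.41, 0.026 and 0.28 in P5 (3.57 ± 0.18, adjusted p = 8.05e-06). miR-211-5p had no detected P5 value and was higher in P4 by at least 23.2-fold with the floor and processing used. Its lowest log2 difference over the alternative settings was 1.70.

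The array also holds probes for miR-145b, named as a relative of miR-145a and encoded by the separate gene Mir145b outside Carmn. It was detected on no array, with intensities of 0.14, 1.55 and 1.00 in P4 and of 0.60, -0.46 and 0.79 in P5. All were far below the floor, at most 18.2% of it, and 0 of its 120 spots in P4 were well above background. The high signal of miR-145a-5p in P4 was thus not accompanied by signal on the miR-145b probes.

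The cluster was higher in P4 under each setting tried. Over 22 alternative settings miR-143-3p was between 4.17 and 5.21 and miR-145a-5p between 4.15 and 5.06, each past the threshold in all 22. miR-145a-3p was between 1.65 and 5.03 (22 of 22), and miR-143-5p between 1.39 and 9.81 (21 of 21, as it is not tested where detection on all 6 arrays is required). As miR-143-5p was tested only through P4, its count is a description. For each arm the lowest value came from normexp, a model-based background correction with an offset of 50. That setting also used median spot signals and quantile normalization, with no floor, and which step lowered the values was not tested. The highest values of miR-145a-3p and miR-143-5p came from the summed signal and, for miR-143-5p, from the authors' deposited log2 values as well.

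**Figure D5:**
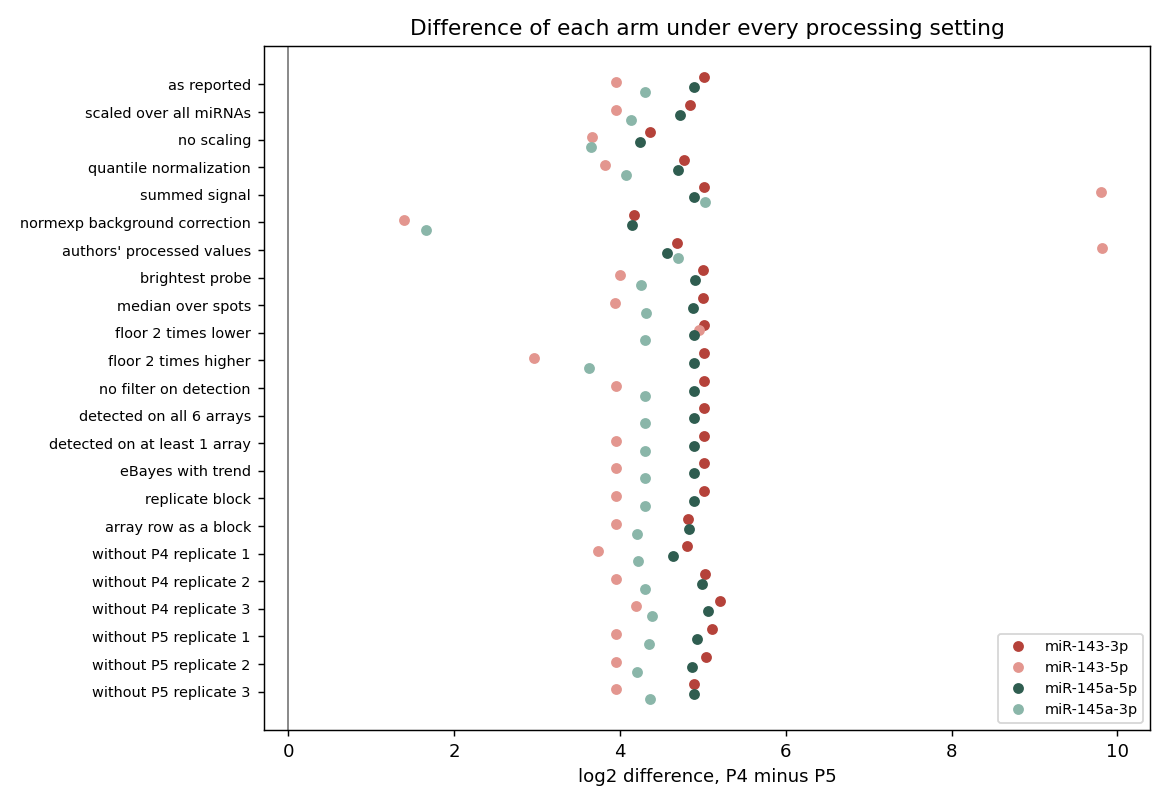
Log2 difference between P4 and P5 (horizontal axis) of the 4 arms under the setting reported and each alternative (vertical axis). The guides stay between 4.15 and 5.21, while miR-143-5p spans 1.39 to 9.81 and miR-145a-3p 1.65 to 5.03, and all points lie to the right of 0.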

How the data were processed

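Per the file headers, the spot intensity values deposited by the authors came from Feature Extraction 11.0.1.1 (Agilent) and are linear, background-subtracted and not scaled between arrays. The authors' deposited log2 values of the same arrays equal the log2 of Agilent's summed signal after adding 1 offset for the array and 1 for the row, of unknown origin, within 7.86e-06, and were used only as an alternative. The probe design names the build mm9, per the file headers. Flags for detection and background and other codes in the deposited files are those of the scanner software.

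Control spots and flagged outlier spots were left out. Processed signals of a probe's spots were averaged, then those of a miRNA's probes. Arrays were scaled by the 75th percentile of the 293 miRNAs that every array detected. The floor is the 95th percentile of scaled signal among undetected miRNAs (median of the arrays), and log2 was taken last. P4 was compared with P5 with lmFit and eBayes of limma 3.58.1 under R 4.3.3 (2-sided, no block) over 370 miRNAs, with Benjamini-Hochberg adjustment, and over their 868 probes likewise. The fit was tested on simulated data with normal noise and no floor, which does not cover values held at the floor. No spot was saturated. All arrays lay on 1 slide and were read in 1 scan, in 2 rows. For the normexp alternative the median spot signal was used, with quantile normalization in place of the scaling and the floor. The number of arrays limits the precision.

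The members, the lists and the tests were chosen with earlier results of these data known. The text names the 4 members, miR-145b, the 5 miRNAs closest in profile, the muscle list, with values in the report for up to 6 of its called members, and the marker lists.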

Additional observations from a re-analysis of the deposited data

How the results depend on the processing

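All 4 arms stayed higher in P4 and past the threshold under every alternative that tested them. For miR-143-5p, tested only because P4 detected it, this is a description and adds little. Leaving out 1 array at a time, miR-143-3p was between 4.81 and 5.21, miR-143-5p between 3.73 and 4.19, miR-145a-5p between 4.63 and 5.06 and miR-145a-3p between 4.20 and 4.39. The count of miRNAs called higher in P4, 51 as reported, was 23 when arrays were left unscaled, 31 on the authors' processed values, 25 with no filter on detection and 29 when the slide row was a block (43 to 57 leaving out 1 array). The count called lower, 52 as reported, was 81, 22 and 23 on the last 3 of these (37 to 55 leaving out 1 array).

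The arm ratios depended on how undetected signal was set. With the summed signal and the authors' processed values the change was 4.79 and 5.12 for miR-143 and 0.13 in both for miR-145a, in place of -1.06 and -0.59. With normexp it was -2.78 and -2.49, and with a floor 2 times higher -2.06 and -1.27. The change in the guide ratio, -0.12, was between -0.18 and 0.0040 leaving out 1 array, the highest without P5 replicate 3. Leaving out 1 array, the arm changes were between -1.15 and -0.93 for miR-143 and between -0.69 and -0.41 for miR-145a. With a floor 2 times lower the miR-143 change was -0.057. Values of listed miRNAs that were not called turned with no scaling, miR-26a-5p to -0.31, miR-31-5p to -0.038, miR-10a-5p to -0.0025 and miR-155-5p to -0.18, and miR-155-5p to -0.15 with the authors' values. miR-21a-5p passed as lower with scaling over all miRNAs (-0.92), no scaling (-1.40), quantile normalization (-0.97), normexp (-0.89) and without P5 replicate 2 (-1.01). Beside the losses given with the marker lists, calls were lost for miR-24-3p and miR-100-5p with no scaling, for miR-24-3p, miR-126-3p and miR-126-5p with no filter on detection, for miR-126-3p and miR-126-5p with the row block, for miR-146a-5p with the summed signal and the authors' values, and for miR-429-3p with quantile normalization, the summed signal and detection on at least 1 array. miR-142-5p was called higher without P4 replicate 1, and miR-223-3p without P5 replicate 3, with the brightest probe and with a floor 2 times lower. The cause was not tested. miR-199a-5p as 1 of the 5 closest miRNAs gave way in 5 of 10 settings of the values. miR-204-5p gave way with quantile normalization, the summed signal, the authors' values and a floor 2 times lower. The summed signal and the authors' values each kept 1 of the 5, miR-125b-5p.

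Whether the replicate numbers pair the arrays is not given. Same-numbered arrays correlated in their deviations at -0.070, 0.37 and 0.086, which cannot settle it with so few arrays. With the replicate number as a block the 4 arms were at 5.01, 3.96, 4.90 and 4.30, all past the threshold.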
